A study of Rattus norvegicus with 2 samples.

Results

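The proteins of the kinetochore, spindle checkpoint, condensin and cohesin, with a subset of the kinesin motors, carry chromosomes through mitosis, while other kinesins move cargo along microtubules. Here 115 genes of these families were examined, chosen by symbol alone from the 18166 genes with a single symbol on a rat whole-transcript microarray. They comprise the genes whose symbol starts with Kif, Cenp, Bub, Aurk, Plk, Ncap, Smc or Anapc, plus 20 of 23 further mitotic genes named individually, wherever a probe set had that symbol alone. The remaining 3, Birc5, Spc24 and Anln, had no such probe set, Kif1b and Cenps shared theirs with other genes, and these 5 were not analysed here. The prefixes also caught 7 genes of other families, such as Smcp, Smcr8 and Aurkaip1, which were kept and are described apart.

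RNA came from the rat C6 glioma line, an established tumour line grown in medium with 10% serum. One group, C6, was 1 culture of undifferentiated cells. The other, SMiG, was 1 culture of the same line exposed to small molecules to obtain glia-like cells, and the series asks whether such cells proliferate less. The labels disagree on the compounds. The SMiG sample's own labels name forskolin, which activates adenylyl cyclase, rapamycin, which inhibits mTORC1, and I-BET151, which blocks BET bromodomain proteins, with no doses. The protocol text, attached to both samples, instead describes 35 days with 20 µM of the GSK3 inhibitor CHIR99021 and 100 µM of forskolin. Each group had 1 array, so no difference could be set against a spread between replicates and no p-value could be computed. Precision is limited by the number of arrays.

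In a dividing cell, condensin folds the chromosomes while cohesin holds sister chromatids together. Kinetochores are built on centromeres, the NDC80 complex grips spindle microtubules, and unattached kinetochores keep the checkpoint proteins MAD2, BUB1 and BUBR1 active. Once all are attached, the anaphase-promoting complex (APC/C) with its activator CDC20 marks securin for destruction, separase is freed and cohesin is cut. Many of these genes, though not all, are transcribed in late S phase, G2 and mitosis. In bulk RNA the levels of such genes follow the share of cells in those phases as well as the activity of each gene. In these data a smaller share of such cells and less RNA per cell cannot be told apart.

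Values are the deposited log2 expression levels, and a difference is the log2 value in SMiG minus that in C6. A gene was called detected if it exceeded, on at least 1 array, the 95th percentile of the olfactory and vomeronasal receptor genes (4.86 in C6 and 4.96 in SMiG), which are silent in most tissues. Of the 115 members, 104 were detected, 101 of them on both arrays. Those not detected were Kif2b, Kif6, Kif9, Kif16b, Kif27, Kif28p, Kifc2, Smc1b, Smcp, Smco4 and Cenpwl1. The differences of the 1344 receptor genes had an SD of 0.32, which gives a scale for technical scatter but holds no variation between cultures. The glial markers Vim, Nes, S100b, Cspg4, Sox10 and Gfap were detected on both arrays, and none of 6 microglial markers was. Of the endothelial markers Cdh5, Emcn and Tek, Tek alone was detected, at 4.98 in SMiG and 5.83 in C6, and of 5 neuronal markers Rbfox3 and Slc17a7 lay near the floor on C6 and below it on SMiG.

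The 104 detected genes, mitotic and not, lay slightly lower in SMiG as a group, with few large differences. Of these members, 66 (63.5%) had a lower value in SMiG, against 50.3% of all 10903 detected genes. Their median difference was -0.12, where that of all detected genes was -0.0040. Only 4 members (3.85%) were at least 2-fold lower, namely Kif21b, Pttg1, Kif3c and Kif18a, and 1 (0.962%) was at least 2-fold higher, Kif24. Among all detected genes these shares were larger, 6.53% lower and 3.2% higher, so large differences were no more frequent among the members. At 1.5-fold, 11 members (10.6%) were lower against 15.1% of all detected genes, and 2 (1.92%) were higher against 10.5%. At a log2 difference of 0.5, 18 (17.3%) were lower against 18.4%, and 3 (2.88%) were higher against 13.6%. The differences of 83 members (79.8%) lay within 0.5 of zero, as did those of 68.1% of all detected genes. The members thus lay closer to zero than detected genes in general, and more often just below it.

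**Figure D1:**
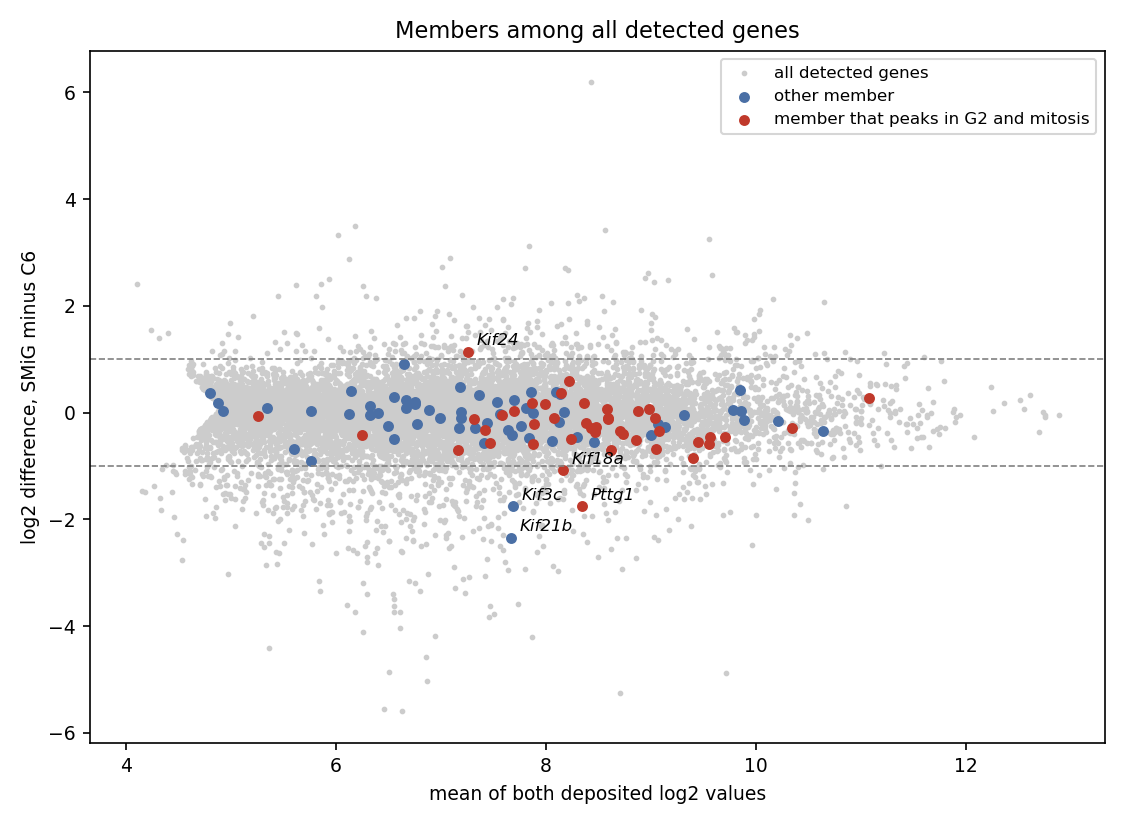
Each point is a detected gene, with the mean of its deposited log2 values on the 2 arrays on the x axis and the log2 difference, SMiG minus C6, on the y axis. Grey points are all 10903 detected genes, red points members that peak in G2 and mitosis and blue points other members. Dashed lines mark 2-fold. The 5 members past 2-fold carry their names, and most members sit in the dense band around zero.

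Lower values made up a larger share of the genes known to peak in G2 and mitosis than of the other members, a difference that could not be tested. These 43 detected members had a median difference of -0.29, and 32 of them (74.4%) were lower in SMiG. They were assigned from textbook knowledge, but this split and the 2 gene lists below were drawn up with earlier results of these data known. The contrasts are therefore descriptions and not independent support. The other 61 members, among them transport kinesins, APC/C subunits and most subunits of the inner kinetochore, had a median of -0.03, with 34 (55.7%) lower. Differences within 0.5 of zero made up 86.9% of these 61, but 69.8% of the 43, near the 68.1% of all detected genes. Values lower by 0.5 or more made up 25.6% of the 43 and 11.5% of the 61, against 18.4% of all detected genes. A further 68 detected mitosis genes outside the rule, such as cyclins and spindle proteins, had a median of -0.26 with 46 lower. Conversely, 45 detected DNA replication genes had a median of 0.33, and 36 of them were higher. The G2 and mitosis members were not lower across the board: Kif24, Mad2l1, Incenp, Mki67, Plk4, Spc25, Ncapg2, Aurkb, Kif18b, Ncapd2 and Melk had higher values in SMiG, from 0.03 for Melk to 1.14 for Kif24.

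**Figure D2:**
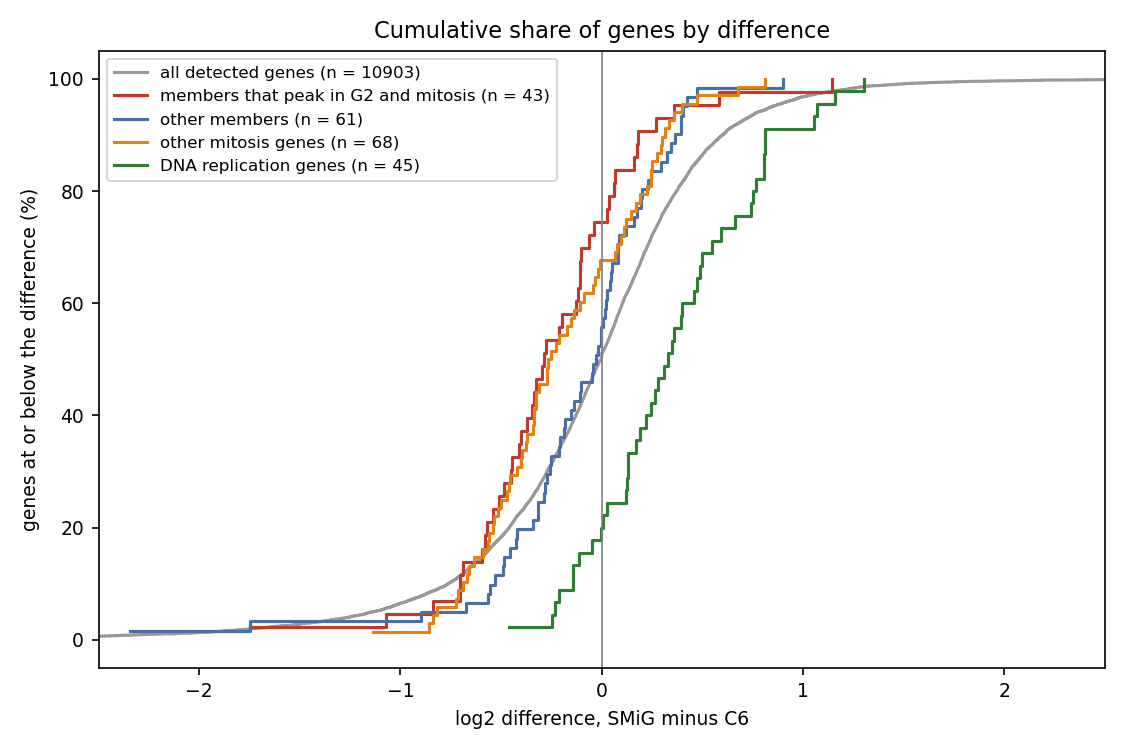
The curves give the percentage of genes (y axis) at or below each log2 difference, SMiG minus C6 (x axis), for all 10903 detected genes, the 43 members that peak in G2 and mitosis, the 61 other members, 68 other mitosis genes and 45 DNA replication genes. The curve of the G2 and mitosis members lies to the left of all detected genes over its middle part, with 74.4% of them below zero, and the curve of the replication genes lies to the right.

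Securin, encoded by Pttg1, is the inhibitor that holds separase until anaphase, and it had the most negative difference of any G2 and mitosis member. Its probe set (17655588) read 7.47 in SMiG against 9.22 in C6, differing by -1.75 or 3.36-fold lower, the 214th lowest of 10903 detected genes. Its partner separase, encoded by Espl1, read 7.56 and 7.60, a difference of -0.04. The RNA of Pttg1 was therefore lower in SMiG while that of Espl1 was level, and neither protein was measured. The APC/C activators gave small differences, with Cdc20 at 8.53 in SMiG and 8.65 in C6 and Fzr1, encoding the G1 activator CDH1, at 8.18 and 8.17.

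The subunits of the APC/C itself, a ubiquitin ligase of many parts, lay between -0.57 and 0.39, with a median of -0.14. Of these, 7 of 10 (70.0%) were below zero, near the 63.5% of all detected members, against 50.3% of all detected genes. The lowest were Anapc15, which promotes turnover of the checkpoint complex, at 7.13 in SMiG against 7.69 in C6, and Anapc4, a scaffold subunit, at 7.79 against 8.32. Anapc16 was at -0.48 and the large scaffold subunit gene Anapc1 at -0.42. Anapc13 was the highest, at 8.29 against 7.90. Anapc2, encoding the cullin subunit, and Anapc11, encoding the RING subunit, form the catalytic core and were level at 0.00 and -0.03, with signs that flip in at least 1 of the scalings tried. Of the APC/C genes named outside the Anapc prefix, listed among the other mitosis genes, Cdc26 was lower by 0.47, Cdc23 by 0.42, Cdc16 by 0.40 and Cdc27 by 0.25 on the log2 scale. In that list 67.6% of the detected genes were lower.

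Promoters are shown for 7 of the G2 and mitosis members, because many genes of that class share a short element near their start. They are the 3 with the most negative differences (Pttg1, Kif18a and Ndc80), the 2 with the most positive (Kif24 and Mad2l1), and Plk1 and Cenpf as well-known genes of mitosis. That element, the cell cycle genes homology region (CHR), is bound by the MuvB core of the DREAM and B-MYB complexes, and it often stands downstream of CCAAT boxes bound by NF-Y. Sequences are RefSeq promoter windows of the GRCr8 assembly, from 250 bases before to 50 after the annotated start, 5′ to 3′ on the gene's strand. Capitals mark the letters TTTGAA or TTTAAA, searched as the CHR, and CCAAT, each on both strands with overlapping matches counted, so TTCAAA and ATTGG are the same letters on the other strand.
Pttg1, chr10:28406277-28406576, minus strand: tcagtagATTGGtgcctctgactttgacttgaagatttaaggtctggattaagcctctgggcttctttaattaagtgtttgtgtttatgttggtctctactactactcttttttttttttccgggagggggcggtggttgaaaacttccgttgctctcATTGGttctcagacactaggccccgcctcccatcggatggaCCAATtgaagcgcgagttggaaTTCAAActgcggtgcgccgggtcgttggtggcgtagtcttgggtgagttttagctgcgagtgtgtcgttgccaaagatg
Ndc80, chr9:118887480-118887779, minus strand: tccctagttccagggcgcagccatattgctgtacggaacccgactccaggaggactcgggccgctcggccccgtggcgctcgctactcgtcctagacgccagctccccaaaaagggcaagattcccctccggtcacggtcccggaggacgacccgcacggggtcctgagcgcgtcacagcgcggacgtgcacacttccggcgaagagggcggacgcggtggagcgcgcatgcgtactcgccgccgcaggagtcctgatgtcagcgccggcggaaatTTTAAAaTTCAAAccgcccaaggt
Plk1, chr1:186147408-186147707, plus strand: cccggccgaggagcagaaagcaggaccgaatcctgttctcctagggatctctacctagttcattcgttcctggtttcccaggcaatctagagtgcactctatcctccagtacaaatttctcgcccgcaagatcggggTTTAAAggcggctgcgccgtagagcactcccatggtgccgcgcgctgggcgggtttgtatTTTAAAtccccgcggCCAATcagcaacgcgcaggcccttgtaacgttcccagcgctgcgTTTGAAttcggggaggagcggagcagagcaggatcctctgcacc
Cenpf, chr13:103760837-103761136, minus strand: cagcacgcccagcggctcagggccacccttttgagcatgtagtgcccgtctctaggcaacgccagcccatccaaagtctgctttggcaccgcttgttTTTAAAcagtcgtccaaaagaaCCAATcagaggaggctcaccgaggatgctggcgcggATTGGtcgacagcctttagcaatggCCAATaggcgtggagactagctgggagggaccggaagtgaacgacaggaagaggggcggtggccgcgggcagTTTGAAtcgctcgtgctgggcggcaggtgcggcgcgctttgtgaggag
Mad2l1, chr4:97236259-97236558, plus strand: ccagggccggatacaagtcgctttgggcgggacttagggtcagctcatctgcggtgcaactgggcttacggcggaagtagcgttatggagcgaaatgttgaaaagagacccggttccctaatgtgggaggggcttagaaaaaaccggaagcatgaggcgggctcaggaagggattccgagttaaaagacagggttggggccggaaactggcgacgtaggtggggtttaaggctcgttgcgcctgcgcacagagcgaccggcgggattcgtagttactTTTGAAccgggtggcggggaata
Kif18a, chr3:116218757-116219056, plus strand: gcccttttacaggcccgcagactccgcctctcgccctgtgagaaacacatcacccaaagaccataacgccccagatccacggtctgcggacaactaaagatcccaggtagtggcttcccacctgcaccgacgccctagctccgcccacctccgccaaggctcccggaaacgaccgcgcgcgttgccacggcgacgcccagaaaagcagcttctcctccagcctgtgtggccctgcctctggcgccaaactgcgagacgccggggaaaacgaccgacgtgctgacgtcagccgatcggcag
Kif24, chr5:61423833-61424132, minus strand: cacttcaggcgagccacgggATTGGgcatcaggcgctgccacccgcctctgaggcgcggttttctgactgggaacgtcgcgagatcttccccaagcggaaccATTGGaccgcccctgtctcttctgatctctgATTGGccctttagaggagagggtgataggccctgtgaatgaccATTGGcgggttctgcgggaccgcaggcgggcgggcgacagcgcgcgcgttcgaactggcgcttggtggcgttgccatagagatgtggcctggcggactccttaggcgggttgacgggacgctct

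In these windows Pttg1 holds a CCAAT 51 bases before the start and a TTTGAA, on the other strand, 29 bases before it. Plk1 and Cenpf show CCAAT letters before the start and a TTTGAA just after it, 7 and 3 bases in. Ndc80 and Mad2l1 have TTTGAA letters 34 and 28 bases after the start and no CCAAT. Kif24 has 4 CCAAT matches and no CHR letters, and Kif18a has neither. Among these 7, Mad2l1 has CHR letters and was higher in SMiG, and Kif18a has none and was lower.

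Promoters were matched by gene number for 95 of the 115 members, and for 86 of the detected ones, with the first listed window taken where a gene had several. CHR letters stood in 33 of 38 (86.8%) windows of detected G2 and mitosis members and in 8 of 48 (16.7%) of the other detected members. They stood in 27.9% of the windows of all 27457 genes, in 18.9% of those of detected genes and in 5 of 37 (13.5%) of DNA replication genes. CCAAT was present in 65.8% of the G2 and mitosis members and 35.4% of the other members. It was nearly as frequent in DNA replication genes, at 62.2%, and stood in 37.7% of all windows. Genes are known to peak in G2 and mitosis partly through this element, so the overlap is a description of the set and not independent of how it was drawn. Within the 38, the 33 genes with CHR letters had a median difference of -0.33 and 28 were lower, while the 5 without, Kif18a, Kif18b, Kif24, Melk and Ncapg2, had a median of 0.06 and 1 was lower. The smaller group holds both extremes of the mitotic kinesins, so its median says little. With CHR letters, the genes higher in SMiG were Mad2l1, Mki67, Plk4, Spc25 and Ncapd2.

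The 13 detected genes grouped as mitotic kinesins mostly encode motors that build the spindle, move chromosomes or divide the cell. Of these 13, 11 were lower in SMiG and the median difference was -0.20. Kif18a, which dampens chromosome oscillation at the metaphase plate, read 7.63 in SMiG and 8.70 in C6 (probe set 17764524), 2.11-fold lower. Next came the chromokinesin gene Kif22 at 7.58 against 8.16, Kif20a, whose motor acts in the central spindle during cytokinesis, at 9.18 against 9.72, and the chromokinesin gene Kif4a at -0.49. Kif23, the motor of the centralspindlin complex, was at -0.40. The bipolar spindle motor gene Kif11 read 8.54 against 8.64, a small difference, and Kif15, which can share its task, was at -0.21. Kif2c, a microtubule depolymerase at the centromere, was at -0.20, Kifc1, a minus-end motor that bundles spindle poles, at -0.13 and Kif20b at -0.11. Kif4b, at -0.06, is a near copy of Kif4a whose probes may share signal, so its value is uncertain. Kif18b, the close relative of Kif18a, was at 0.06.

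Kif24 was counted with the mitotic kinesins, and so with the G2 and mitosis members, although its described role is at the centriole and cilium. It encodes a depolymerase of the centriole that restrains primary cilia, and it read 7.83 in SMiG against 6.69 in C6 (probe set 17806581), differing by 1.14 or 2.21-fold higher and the 243rd highest of the detected genes. Plk4, the kinase that starts centriole duplication, was at 0.18, and Cenpj, a centriole protein named with the centromere family, at 0.16.

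Outside the mitotic kinesins, 2 of the motors passed 2-fold. Kif21b, a motor found mainly in neurons and lymphocytes, read 6.50 in SMiG against 8.84 in C6 (probe set 17680470), differing by -2.34 or 5.07-fold lower, the 93rd lowest of the detected genes. Kif3c, a kinesin-2 motor subunit that pairs with KIF3A in neural transport, read 6.81 and 8.56 (probe set 17814426), 3.36-fold lower at -1.75. Both were well above the floor on both arrays. Kif26b, an atypical kinesin of developmental signalling, was at 5.32 against 6.21, a difference of -0.90.

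The partners of Kif3c did not share the size of its difference. Kifap3, the adaptor of kinesin-2, read 8.19 in SMiG against 8.74 in C6, Kif3a was at -0.26, and Kif3b, the usual partner of KIF3A in cilia, was level at 0.01. The heavy chains of conventional kinesin lay on either side, with Kif5b, present in most cells, at -0.34 and Kif5c, enriched in neurons, at 0.39. The neuronal Kif5a and Kif1a were at 0.18 and 0.37, but exceeded the floor on the SMiG array alone, which favours a positive value. Kif26a was at 0.41, Kif13b at 0.20, Kif7, which regulates Hedgehog signalling in cilia, at 0.12 and Kif13a at -0.18. Over all 18 detected transport and other kinesins, 9 were lower and 9 higher, with a median of 0.00 that moved to -0.18 at a stricter floor. Without Kif21b and Kif3c, singled out after their values were seen, 7 of 16 were lower and the median was 0.02.

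**Figure D3:**
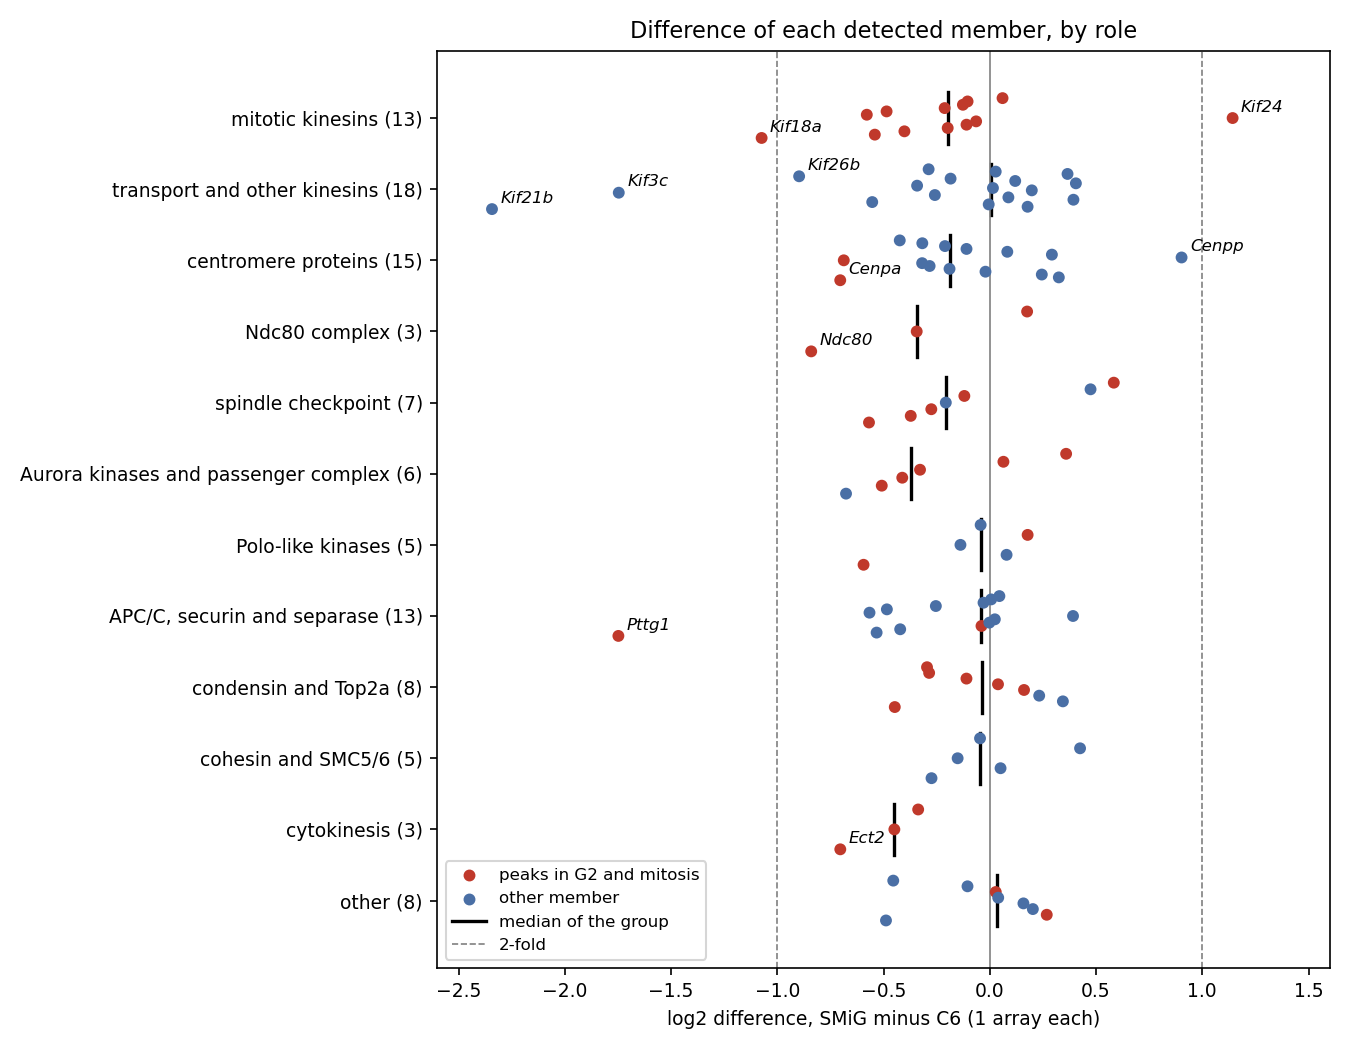
Each point is a detected member placed by its log2 difference, SMiG minus C6 (x axis, 1 array each), and by its role (y axis, with the number of genes). Red points peak in G2 and mitosis, blue points are other members, black bars are group medians and dashed lines mark 2-fold. Members at an absolute difference of 0.7 or more are named, and the vertical scatter within a row has no meaning. The 3 cytokinesis genes all lie left of zero, while the transport kinesins spread to both sides.

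Kinetochore genes had values on both sides, and Ndc80, Cenpa and Cenpf had the most negative differences among the measured centromere and NDC80 complex genes. Ndc80, whose protein makes the grip on the microtubule, read 8.98 in SMiG against 9.82 in C6 (probe set 17867205), differing by -0.84. Nuf2, its direct partner, was at -0.34, at 8.54 against 8.88, whereas Spc25, from the base of the same complex, was at 0.18, at 7.96 against 7.78. Members of a complex built in equal parts thus differed in sign on these arrays, but the value of Spc25 lies within the SD of 0.32 of the receptor genes. Other outer kinetochore genes, from the list of other mitosis genes, were on both sides: Knl1 at 0.24, Pmf1 at 0.17, Mis12 at 0.10 and Dsn1 at -0.03, and in the SKA complex Ska1 at -0.64, Ska2 at -0.04 and Ska3 at 0.12. Cenpf, encoding a large protein of the outer kinetochore, read 8.70 against 9.39, a difference of -0.69. Cenpa, encoding the histone H3 variant that marks centromeres, read 6.81 against 7.52, a difference of -0.70. Its chaperone gene Hjurp, from the list of other mitosis genes, was at 0.25, while Oip5, encoding a protein needed to load CENP-A, was at -0.86.

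The constitutive centromere network, the inner kinetochore on which the rest is built, had values on both sides of zero. Of its 12 measured subunits, 8 (66.7%) were below zero, against 63.5% of all detected members and 50.3% of all detected genes. The median was -0.15, with values from -0.42 to 0.90. Cenpp, a subunit of the CENP-O group, was the highest at 7.10 in SMiG against 6.20 in C6, 1.87-fold. Its neighbours in that group were at 0.32 for Cenpu and -0.19 for Cenpq, so the excess of Cenpp was not shared by them. In the CENP-H group, Cenpi was at -0.42, Cenpm at -0.32, Cenpk at -0.11 and Cenph at 0.29. Cenpt and Cenpw, histone-fold proteins that bind each other, were alike at -0.32 and -0.28. Cenpl was at -0.21, Cenpn at -0.02, with a sign that flips in at least 1 scaling, and Cenpc, the link from the centromere to the outer kinetochore, at 0.08. Cenpb, which binds satellite DNA, was at 0.24.

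In the spindle checkpoint, the BUB genes and the MAD genes lay on opposite sides. Bub1b, encoding BUBR1, read 7.18 in SMiG against 7.75 in C6, differing by -0.57. Bub1, the kinase that recruits it, read 8.28 and 8.65, and Bub3, their shared adaptor, was at -0.21. Ttk, encoding MPS1, the kinase that starts the signal, was at -0.28, and Cdc20, the target of the checkpoint, at -0.12. Against these 5 lower genes, Mad2l1, encoding the MAD2 protein that captures CDC20, read 8.51 in SMiG against 7.93 in C6, differing by 0.58 or 1.5-fold higher. Mad1l1, its kinetochore anchor, was at 0.47, at 7.42 against 6.95. The signs of all 7 genes held under median centring, quantile normalization and removal of the lowess trend. These scalings shift values too little to turn differences of this size. Those of Bub3, Ttk and Cdc20 lie within the SD of 0.32 of the receptor genes.

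Genes of the mitotic kinases and their partners had values on both sides. Plk1, Aurka and Tpx2 were lower and Aurkb was level, while Plk4 and Cdk1, described apart, were higher at 0.18 and 0.19. Plk1, the main Polo-like kinase of mitotic entry, read 9.26 in SMiG against 9.85 in C6, differing by -0.59. Aurka, the spindle pole kinase, read 7.26 and 7.59, and Tpx2, its activator on microtubules, read 8.60 and 9.11, a difference of -0.51. In the chromosomal passenger complex, Aurkb read 8.62 and 8.55, a difference of 0.06, its scaffold Incenp was at 0.36 and Cdca8, encoding borealin, was at -0.41. Aurkc, used mainly in meiosis, read 5.26 against 5.93. Of the Polo-like kinases that respond to stress, Plk2 was at -0.14 and Plk3 at -0.04, and Plk5 was at 0.08. The signs of the Plk3 difference and of the family median turn under quantile normalization.

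The 3 detected members of the cytokinesis group were all lower, where 50.3% of all detected genes were. Cep55, a cytokinesis gene from the list of other mitosis genes, was higher, at 0.14. Ect2, the exchange factor that activates RhoA at the cleavage furrow, read 8.26 in SMiG against 8.97 in C6, differing by -0.70. Prc1, which bundles the central spindle and is the partner of KIF4A, read 9.49 and 9.94. Racgap1, the centralspindlin partner of KIF23, read 8.91 and 9.25. Ect2, Prc1 and Racgap1 kept their signs under each scaling tried, but the scalings shift values too little to turn differences of this size.

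Condensin and cohesin genes lay on both sides of zero, with no member past 1.5-fold. Of the motor subunits shared by both condensins, Smc4 read 9.34 in SMiG against 9.79 in C6, differing by -0.45, and Smc2 read 8.99 and 9.10. The subunits of condensin II, which acts in the nucleus from early prophase, all had positive values, with Ncaph2 at 0.34, Ncapd3 at 0.23 and Ncapg2 at 0.16. Those of condensin I, which reaches chromosomes after the nuclear envelope opens, were at 0.04 for Ncapd2 and -0.29 for Ncapg. These values lie within the SD of 0.32 of the receptor genes, except those of Smc4 and Ncaph2. Top2a, the topoisomerase that untangles sister chromatids, read 10.19 in SMiG and 10.49 in C6.

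In the cohesin ring, Smc3 had a difference of 0.42, from 9.63 in C6 to 10.06 in SMiG, while Smc1a was at 0.05 and Rad21, the subunit that separase cuts, at -0.15, at 10.13 against 10.29. Most genes of other cohesin subunits and regulators in the list of other mitosis genes were lower, where 67.6% of that list and 50.3% of all detected genes were. Pds5a was at -0.69, Stag1 at -0.67, Sgo2 at -0.46, Stag2 and Wapl at -0.27 and Sgo1 at -0.23. Esco1 and Pds5b were nearly level, at -0.09 and -0.01. Esco2, which acetylates SMC3 in S phase, was higher, at 0.68. Smc5 and Smc6, of the repair complex related to cohesin, were at -0.05 and -0.27.

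A few members fell outside these complexes. Mki67, encoding the Ki-67 antigen that coats mitotic chromosomes, read 11.21 in SMiG against 10.95 in C6, differing by 0.27. Melk, a kinase gene of dividing cells, read 7.71 and 7.68. Among the prefix matches of other families, Aurkaip1 was at -0.45, Smcr8 at -0.10, Kifbp at 0.20 and the pseudogene Aurka-ps1, above the floor in C6 alone, at 0.04. Cenpv was at -0.49.

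**Figure D4:**
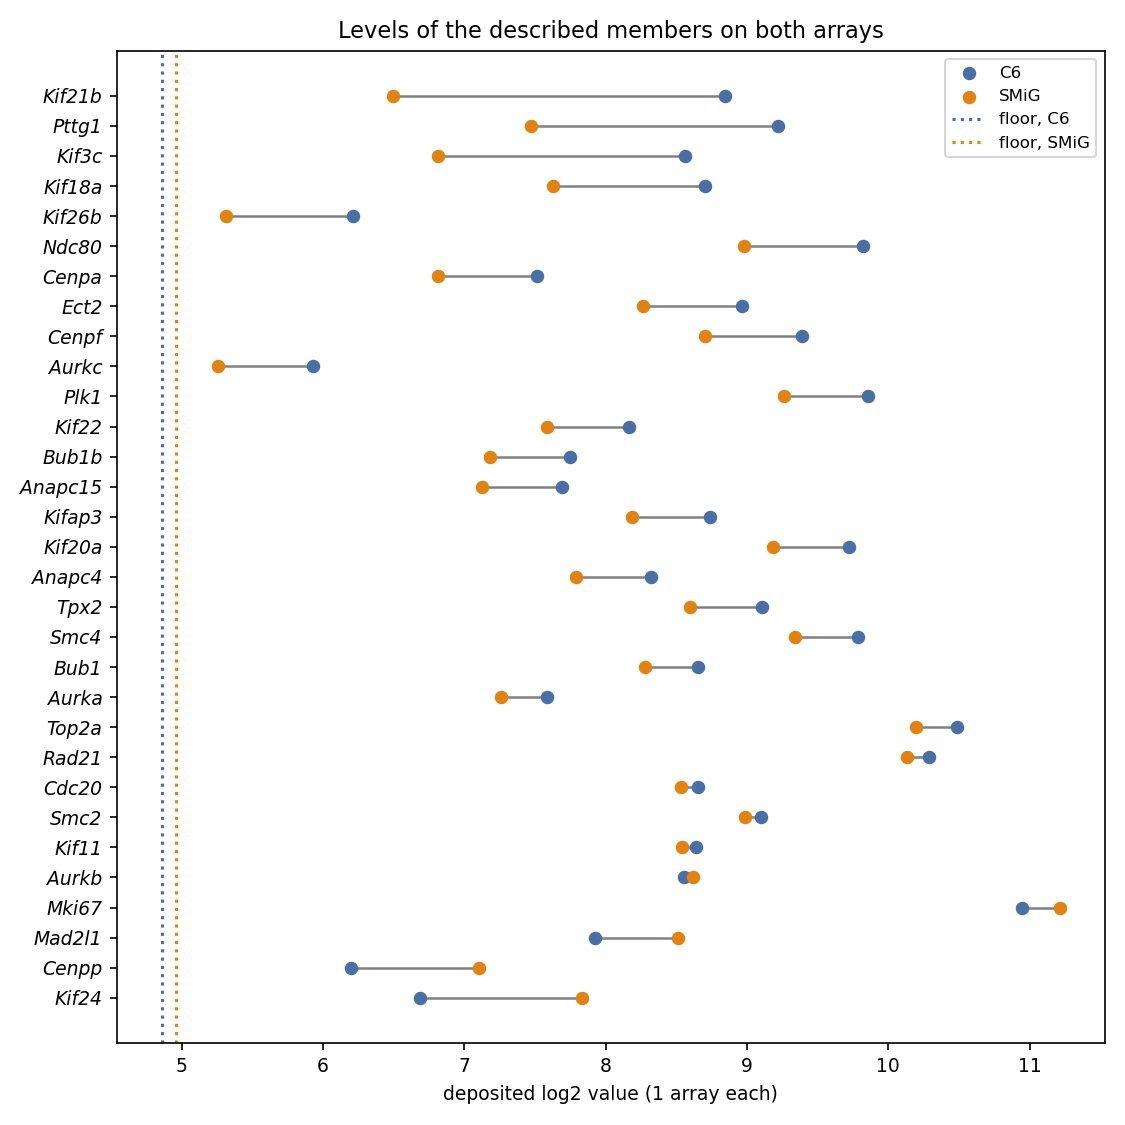
For each member at an absolute difference of 0.5 or more, and for 10 further members described whatever their value, the deposited log2 value is shown for C6 (blue) and SMiG (orange), 1 array each, on the x axis. Dotted lines mark the floor of each array, 4.86 and 4.96. Securin (Pttg1), Kif21b and Kif3c have the longest lines, and Mki67, Mad2l1, Cenpp and Kif24 are the rows, with the level Aurkb, where SMiG lies to the right.

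The controllers of this gene set gave values on both sides. Foxm1, encoding the transcription factor of G2 and mitosis genes, read 8.36 in SMiG and 8.06 in C6, and Mybl2, encoding B-MYB, read 7.65 and 7.40. Their differences, 0.30 and 0.25, lie within the SD of 0.32 of the receptor genes. Cdk1, the kinase of mitotic entry, read 9.31 and 9.12. Its cyclin partners were lower, Ccnb1 at 8.30 against 8.97 and Ccnb2 at 8.74 against 9.47, whereas Ccna2 read 8.96 and 9.07. The 4 other mitosis genes with the largest absolute differences were the phosphatase gene Cdc25b at -1.13, Oip5 at -0.86, the CDK-binding gene Cks2 at -0.84 and the spindle protein gene Hmmr at -0.82. Cdc25b was the only one of the 68 past 2-fold.

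In the replication list, 4 of 45 genes passed 2-fold, all higher in SMiG: Ccne2 (cyclin E2) at 1.30, Cdc6, which loads the helicase, at 1.16, the histone deposition gene Chaf1a at 1.07 and Rrm2, which serves nucleotide synthesis, at 1.05. Pcna, encoding the sliding clamp, read 10.25 in SMiG and 9.59 in C6. The 13 detected cell cycle inhibitors had a median of -0.05 with none past 2-fold. The largest were Tob1 at 0.97, Gadd45a at -0.81, Cdkn1a, encoding p21, at 7.44 against 8.16, and Cdkn2c at 0.64.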

How the data were processed

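Expression of 2 samples, 1 C6 and 1 SMiG, assigned by title, was read from the authors' deposited table of log2 values for 36685 probe sets of an Affymetrix whole-transcript array. RNA was extracted with Trizol and labelled with biotin, per the labels' protocols. The log base was read from the range of the values, 1.26 to 13.09, and for background correction, normalization and summarization the method was not given in the sources used here. Since the sorted columns differed by a median of 0.036, no further normalization was applied. On both arrays 1011 probe sets had identical values, none of them a member.

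Genes were named from the 18511 probe sets with 1 symbol in the platform annotation, averaged per gene. Probe sets with several symbols (575), among them 5 that held Kif1b or Cenps, or none (17599) were not used. The members, role groups and lists were chosen with earlier results of these data known. Levels are given for members at an absolute difference of 0.5 or more or past 2-fold, and for Mki67, Top2a, Plk1, Aurka, Aurkb, Bub1, Cdc20, Smc2, Smc4, Rad21 and Kif11; from each other list come the 4 largest differences and Foxm1, Mybl2, Cdk1, Ccnb1, Ccna2, Pcna and Cdkn1a. Others, named for their role, were chosen after their values were seen. The summary was tested on simulated data. Alternatives were other floors, scalings (lowess span 0.3), probe set rules and fold thresholds. Python 3.11.15, numpy 2.4.6, pandas 2.3.3, statsmodels 0.14.6 and matplotlib 3.10.9 were used.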

Additional observations from a re-analysis of the deposited data

How the results depend on the processing

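Of 166 summaries of the members recomputed under 11 alternatives, 161 stayed close to the reported value, meaning within 0.1 for a median and within 1.5 times for a count. The other 5 followed from the threshold or the genes tested. At 1.5-fold, 11 members were lower and 2 higher, and at a log2 difference of 0.5, 18 were lower and 3 higher. With a stricter floor, the receptor genes' 99th percentile, the median of the transport and other kinesins was -0.18, since fewer genes were tested. The median of all members ranged from -0.17 at that floor to -0.10 under quantile normalization. The median of the members that do not peak in G2 and mitosis changed sign, from -0.08 to 0.02, as did that of the Polo-like kinases, from -0.09 to 0.02. Under the 3 scalings 5 members changed sign, none with a difference beyond 0.043 in size. Only the scalings can move the difference of a gene with 1 probe set that exceeds the floor on both arrays, and they moved those of 31 named members by at most 0.060. Raising values to the floor also moves the differences of Kif1a, Kif5a and Aurka-ps1, which exceeded it on 1 array alone. No paired analysis was possible because each group had 1 array. Signal near the floor limits Kif1a, Kif5a, Kif4b, Kif12, Plk5 and Aurka-ps1, the 6 detected members that fall below the stricter floor on both arrays. Aurkc and Kif26b fall below it in SMiG alone.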
